A study of Mus musculus with 4 samples.

Results

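Cholesterol synthesis and its transcriptional control were followed in mouse retina through 7 genes, chosen as a list of symbols and described in each retinal cell class. The list held Srebf2 and Insig1, which belong to the control of the pathway, and the enzyme genes Hmgcs1, Idi1, Fdft1, Sqle and Cyp51. All 7 were found among the 32285 genes of the deposited matrices. Single-cell libraries were prepared on a droplet platform (10x Genomics) from retinas of mice at 30 days of age. The study is about an endoplasmic reticulum stress response in retinal Müller glia of an Alzheimer's disease mouse model, per its title. NLGF mice, 1 female and 1 male, have their own App gene altered by knock-in, with a human amyloid beta stretch and disease mutations. The altered gene is driven by the App promoter, so it is not limited to a retinal cell type. WT mice, 1 female and 1 male, were the controls. The protocol text names the NLGF female retina with both genotype words, and it was taken as NLGF from its title and genotype label, which say NLGF. Each library came from 1 retina of 1 mouse, so every comparison of genotypes rests on 2 libraries against 2, and the spread between libraries of a genotype also holds the difference between the sexes.

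Cells make cholesterol from acetyl-CoA through the mevalonate pathway, which leads to isoprenoids, and then through squalene and lanosterol to the sterols. SREBP2, the product of Srebf2, is a transcription factor held in the membrane of the endoplasmic reticulum and escorted to the Golgi by SCAP when membrane sterol is low, where proteases release its active part. INSIG proteins hold SCAP back when sterol is plentiful, and the genes of the pathway enzymes, Insig1 and Srebf2 itself are known targets of SREBP2. The neural retina both makes cholesterol and takes it up from the circulation.

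The 4 libraries held 35191 barcodes and 85860041 unique molecular identifiers (UMIs), with median UMIs per barcode between 945.5 and 1168.5. After filtering, 31532 cells fell into 20 clusters, which were named from marker genes only. These classes are therefore rod-like, Müller-like and so on, and 3 clusters stayed unnamed. The 8 named classes were amacrine cells, Müller glia, cone bipolar cells, cones, rods, rod bipolar cells, vascular cells (endothelial and pericyte markers together) and microglia. The 7 genes and the wider lipid lists were left out of the genes used for clustering. Values are CPM, the UMIs of a gene scaled to the summed UMIs of all cells of a class in a library. Before doublets were removed, 116 barcode sequences occurred in more than 1 library among the 33329 barcodes that passed the filters.

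The 7 genes are protein coding and lie on chromosomes 5, 13, 14 and 15 of GRCm38. Srebf2 spans chr15:82147181-82205379 on the plus strand and Insig1 spans chr5:28071363-28078662 on the plus strand. Hmgcs1 spans chr13:119690379-119708260 on the plus strand, and Idi1 lies on the same chromosome at chr13:8885501-8892451 on the plus strand. Fdft1 spans chr14:63145150-63179578 on the minus strand, Sqle spans chr15:59315077-59331192 on the plus strand, and Cyp51 spans chr5:4081145-4104746 on the minus strand. On the opposite strand, Ctsb overlaps Fdft1, Akap9 overlaps Cyp51 and Gm48342 overlaps Hmgcs1. Genes absent from the matrices also overlap Idi1 (Gm48574, opposite strand) and Srebf2 (Gm49502 and Mir33, same strand). The use of strand in counting was not given in the sources used here, so reads of Fdft1 and Cyp51 may be less certain than those of the other members.

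Promoter sequences of 5 of the 7 genes were matched in RefSeq (GRCm38.p6), from 250 bases before to 50 bases after the RefSeq start of the gene. These starts can differ from those of the gene spans above, which come from the GENCODE annotation. Those of Srebf2, Insig1, Hmgcs1 and Idi1 are shown because the levels of these genes went together most closely across classes. Their pairwise Pearson r was 0.78 to 0.88 over 32 sums of class and library, against at most 0.74 for any other pair of members. The sums of microglia, with few UMIs of the members, are among the 32. Capitals mark matches to a sterol regulatory element (TCACNCCA, the type of site bound by SREBP proteins), an E-box (CACGTG) and a CCAAT box (CCAAT), searched on both strands, so that ATTGG is a CCAAT box on the other strand. No marked motif overlaps another. The regions, all on the plus strand, are chr15:82147019-82147318 for Srebf2, chr5:28071162-28071461 for Insig1, chr13:119690101-119690400 for Hmgcs1 and chr13:8885356-8885655 for Idi1.
Srebf2: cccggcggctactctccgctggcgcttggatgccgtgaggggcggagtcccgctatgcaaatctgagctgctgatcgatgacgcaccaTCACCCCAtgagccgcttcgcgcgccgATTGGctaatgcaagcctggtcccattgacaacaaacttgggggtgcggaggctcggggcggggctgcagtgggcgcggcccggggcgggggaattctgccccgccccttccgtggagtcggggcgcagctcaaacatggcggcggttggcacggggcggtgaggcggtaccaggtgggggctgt
Insig1: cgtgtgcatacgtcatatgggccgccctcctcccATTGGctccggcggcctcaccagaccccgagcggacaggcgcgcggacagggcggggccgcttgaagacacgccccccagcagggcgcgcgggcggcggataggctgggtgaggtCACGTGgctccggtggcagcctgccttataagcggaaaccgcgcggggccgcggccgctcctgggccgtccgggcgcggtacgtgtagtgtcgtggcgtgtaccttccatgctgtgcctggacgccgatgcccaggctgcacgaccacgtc
Hmgcs1: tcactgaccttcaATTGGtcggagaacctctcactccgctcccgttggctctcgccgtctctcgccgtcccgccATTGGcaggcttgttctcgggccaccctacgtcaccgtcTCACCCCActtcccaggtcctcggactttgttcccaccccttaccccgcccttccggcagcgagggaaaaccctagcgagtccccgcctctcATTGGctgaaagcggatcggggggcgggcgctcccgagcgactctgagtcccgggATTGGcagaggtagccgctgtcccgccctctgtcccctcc
Idi1: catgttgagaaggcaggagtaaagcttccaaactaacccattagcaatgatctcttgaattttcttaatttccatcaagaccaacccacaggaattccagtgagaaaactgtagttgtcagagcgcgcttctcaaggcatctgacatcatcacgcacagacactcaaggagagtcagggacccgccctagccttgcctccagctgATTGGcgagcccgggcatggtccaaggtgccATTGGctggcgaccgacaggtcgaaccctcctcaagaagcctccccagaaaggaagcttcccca

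The sterol regulatory element was present in the promoters of Srebf2, at position −162, and Hmgcs1, at position −137, counted from 0 at the RefSeq start. Of 27025 mouse promoters of the same length, 1158 (4.28%) held this motif, and it was in 2 of the 17 synthesis gene promoters that could be matched. The E-box was found at −101 in Insig1 and in 7.24% of all promoters. A CCAAT box was present in all 5 matched promoters, with 4 copies in Hmgcs1, 2 in Idi1 and 1 each in Insig1, Srebf2 and Cyp51, against 37.9% of all promoters. The CCAAT box binds NF-Y, a factor known to act beside SREBP2. A GC box (GGGCGG, not marked) was also found in all 5, against 35.9% of all promoters. These matches describe letters in a window and say nothing on binding in the retina.

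All 7 genes had their highest median CPM of any named class in amacrine cells, the inhibitory interneurons of the inner retina, although for Srebf2 the difference from Müller glia was within 1 CPM and turned to lower in amacrine cells under TMM scaling. For 6 of the 7, all but Fdft1, Müller glia, the radial glia of the retina, came next among the 6 classes other than vascular cells and microglia. Rod bipolar cells held the lowest median of Hmgcs1, Idi1, Insig1 and Srebf2. An unnamed cluster with horizontal and retinal ganglion markers, described below, had higher medians than amacrine cells for Hmgcs1, Insig1 and Fdft1. The classes were ordered by the median of the 4 libraries, and neighbours whose libraries overlapped are given as not separated.

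Srebf2, which encodes the transcription factor SREBP2, had 135 and 122 CPM in amacrine cells of the NLGF female and male, and 125 and 126 CPM in those of the WT female and male. In Müller glia it had 128 and 120 CPM in the NLGF female and male, and 123 and 127 CPM in the WT female and male. Amacrine cells and Müller glia were not separated, with medians of 125.5 and 125.4 CPM, and every library of both classes lay above every library of the other classes. Vascular cells followed with a median of 52.6 CPM, then cone bipolar cells with 43.4 CPM, microglia with 27.2 CPM, cones with 26.8 CPM and rods with 25.3 CPM, each overlapping the next. Rod bipolar cells had the lowest median, 11.5 CPM. Their libraries lay below every library of these classes other than microglia, which they overlapped.

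Insig1, which encodes a sterol-sensing anchor of SCAP, had 95.6 and 75.3 CPM in amacrine cells of the NLGF female and male, and 85.0 and 94.5 CPM in those of the WT female and male. Müller glia had 47.0 and 56.3 CPM in the NLGF female and male, and 67.8 and 58.4 CPM in the WT female and male. These 2 classes did not overlap each other or any other named class. Cone bipolar cells had a median of 18.6 CPM, cones 6.78 CPM and rods 5.60 CPM, and rod bipolar cells were lowest with 3.12 CPM.

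Hmgcs1 encodes the cytosolic synthase that makes HMG-CoA at the entry of the mevalonate pathway. Its level in amacrine cells was 383 CPM in the NLGF female, 290.1 CPM in the NLGF male, 291 CPM in the WT female and 286 CPM in the WT male. No library of another named class came near these values, since the highest was 152 CPM in vascular cells of the NLGF female. Müller glia had a median of 90.2 CPM, above cones with 56.0 CPM and not separated from vascular cells with 93.7 CPM. Rod bipolar cells were lowest, between 25.8 and 27.6 CPM in the 4 libraries.

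Idi1 encodes the isomerase that interconverts isopentenyl and dimethylallyl diphosphate. It had 189 and 171 CPM in amacrine cells of the NLGF female and male, and 167 and 169 CPM in those of the WT female and male. The median was 80.4 CPM in Müller glia and 67.7 CPM in cone bipolar cells, and the libraries of these 2 classes did not overlap. From cone bipolar cells down to rods each class overlapped the next, and rod bipolar cells were lowest with a median of 16.8 CPM.

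The enzymes of the squalene and lanosterol steps differed in the class that came second. Fdft1, which encodes squalene synthase, had a median of 103 CPM in amacrine cells, with a range of 94.7 to 129 CPM over the 4 libraries. Cones followed with 42.6 CPM, cone bipolar cells with 40.7 CPM and Müller glia with 28.9 CPM, each overlapping the next. The Müller libraries of Fdft1 thus lay below those of cones and overlapped those of both bipolar classes and of rods.

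Sqle, which encodes squalene epoxidase, ranged from 76.3 to 113 CPM in amacrine cells and from 38.4 to 58.7 CPM in Müller glia. Cones, cone bipolar cells and rods were not separated, with medians of 26.3, 24.7 and 24.3 CPM. Microglia held 0 UMIs of Sqle in all 4 libraries, of 225435 UMIs in all, which allows a level of up to 13.3 CPM from counting error alone. Cyp51, which encodes lanosterol demethylase, ranged from 138 to 159 CPM in amacrine cells. Müller glia and cones were not separated, with medians of 57.3 and 56.7 CPM. The microglial sums of the 7 genes held 0 to 9 UMIs each, so levels of this class are the least certain.

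**Figure D1:**
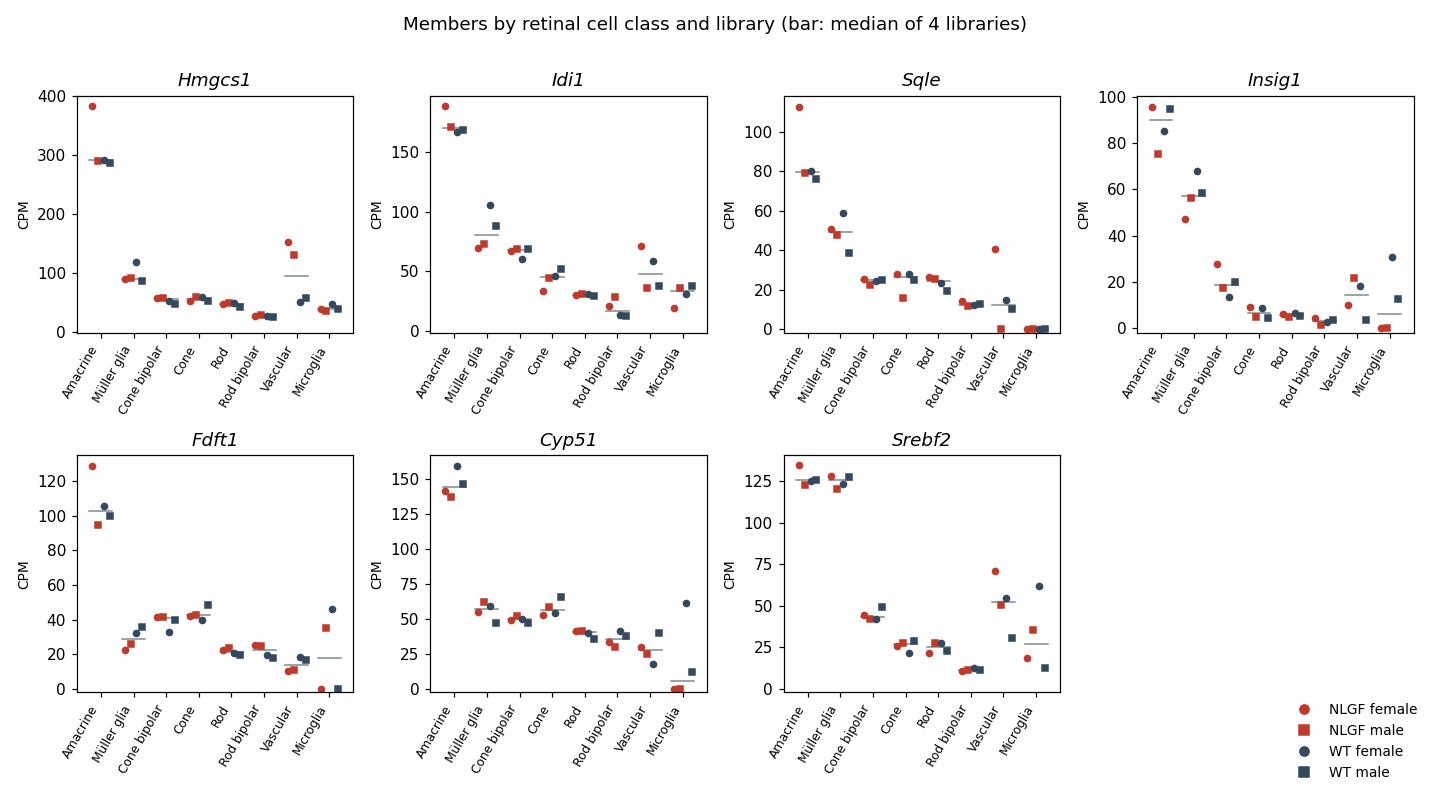
Level of each of the 7 genes (CPM, linear axis) in the 8 named classes. Each point is 1 library (NLGF red, WT dark blue, circles female, squares male), and the grey bar is the median of the 4 libraries. The amacrine points lie above those of every other class for 6 genes, and for Srebf2 the amacrine and Müller points overlap near 125 CPM.

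Free RNA can place transcripts of one class in cells of another, so levels in rods were set beside those of marker genes. The 7 members stood at 6.56% (Insig1) to 27.3% (Cyp51) of their amacrine levels in rods. The 9 amacrine markers, all detected, summed to 201 to 222 CPM in rods, against 4076 to 4275 CPM in amacrine cells. The markers were not alike in this. Slc32a1, Gad1 and Tfap2b stood at 0.70%, 0.76% and 1.37% of their amacrine levels in rods, a smaller share than that of the summed list. The 10 Müller markers, all detected, summed to 170 to 214 CPM in rods, against 21065 to 22407 CPM in Müller glia. The 10 pericyte markers were less restricted, with 930 to 1168 CPM in rods, against 4179 to 13678 CPM in vascular cells. They include Vtn, which was among the top 10 genes of a rod cluster. How much of the low Insig1 level in rods is free RNA was not tested.

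Müller glia were compared with the mean of the other 7 named classes with edgeR's quasi-likelihood test, with library as a block, over 13932 genes. Of the 7 members, 6 were higher in Müller glia after Benjamini-Hochberg adjustment, where 35.9% of all genes tested were called higher and 52.5% in either direction. Insig1 was higher by 2.37 ± 0.15 on the log2 scale (SE, adjusted p = 6.18e-23), Srebf2 by 1.97 ± 0.09 (adjusted p = 1.23e-29) and Idi1 by 0.99 ± 0.12 (adjusted p = 1.93e-11). All genes tested had a median of 0.17 in this contrast. Hmgcs1 was higher by 0.72 ± 0.11 (adjusted p = 2.05e-08) and Cyp51 by 0.44 ± 0.12 (adjusted p = 0.00208). The value of Cyp51 lost its call without the NLGF male library (0.33, adjusted p = 0.0514). Sqle had a log2 difference of 2.35 ± 0.25 (adjusted p = 1.75e-12), which came to 1.12 with microglia left out, since its microglial sums were 0. Without microglia Cyp51 came to 0.25, Hmgcs1 to 0.59, Idi1 to 0.88, Srebf2 to 1.93 and Insig1 to 2.37. Fdft1 did not pass, with 0.06 ± 0.17 (adjusted p = 0.837, 95% interval −0.27 to 0.40).

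The amacrine class was singled out after the levels had been seen, so its values are given without a test. Over the mean of the other named classes its log2 difference was 3.0 ± 0.19 for Sqle (1.79 without microglia), 2.77 ± 0.13 for Insig1 and 2.37 ± 0.08 for Hmgcs1 (SE). It was 1.92 ± 0.11 for Fdft1, 1.91 ± 0.10 for Idi1, 1.72 ± 0.09 for Cyp51 and 1.69 ± 0.09 for Srebf2. Set against Müller glia alone, the difference was largest for Fdft1 (1.63 ± 0.13) and Hmgcs1 (1.44 ± 0.10), followed by Cyp51 (1.12 ± 0.10) and Idi1 (0.81 ± 0.10). Sqle (0.57 ± 0.12) and Insig1 (0.35 ± 0.12) differed less. For Srebf2 the value was −0.25 ± 0.09 under TMM scaling, while the medians on raw totals were alike, so that the enzyme genes and the gene of their transcription factor did not stand in the same ratio between the 2 classes.

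The amacrine level was not uniform. The class joined a cluster of 435 cells, led by Gad1 and Gad2 (the enzymes of GABA synthesis), and a cluster of 165 cells with none of the amacrine markers among its leading genes. Hmgcs1 ranged from 337 to 485 CPM over the 4 libraries in the Gad1 and Gad2 cluster, against 94.7 to 145 CPM in the smaller one. Srebf2 ranged from 149 to 171 CPM in the Gad1 and Gad2 cluster, against 31.6 to 67.6 CPM in the smaller one. Idi1 ranged from 207 to 235 CPM in the Gad1 and Gad2 cluster, against 58.3 to 71.2 CPM in the smaller one, and Cyp51 from 166 to 207 CPM in the Gad1 and Gad2 cluster, against 43.7 to 71.2 CPM in the smaller one. All 7 members were higher in every library of the Gad1 and Gad2 cluster than in any library of the smaller one. In the smaller cluster the medians of Srebf2, Insig1, Sqle and Idi1 (51.3, 41.1, 46.7 and 60.4 CPM) were below those of Müller glia. The smaller cluster was the more deeply sequenced, with a median of 13511 UMIs per cell against 10430.

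Müller glia also joined 2 clusters, of 733 cells with a median of 9394 UMIs and of 718 cells with a median of 806 UMIs. Insig1 ranged from 51.2 to 74.5 CPM in the deeply sequenced cluster, against 7.61 to 34.3 CPM in the shallow one, and Srebf2 from 124 to 136 CPM in the deeply sequenced cluster, against 56.8 to 90.1 CPM in the shallow one. Hmgcs1 did not differ in this way, with 84.0 to 121 CPM in the deeply sequenced cluster and 91.3 to 118 CPM in the shallow one. An unnamed cluster of 572 cells with markers of both horizontal and retinal ganglion cells held levels like those of amacrine cells for several members. Its medians were 340 CPM for Hmgcs1, 109 CPM for Insig1 and 108 CPM for Fdft1. These were above the amacrine medians of 290, 89.7 and 103 CPM, although the libraries overlapped. For Idi1, Sqle, Cyp51 and Srebf2 its medians were below those of amacrine cells. This cluster had a median of 1130 UMIs per cell. With doublets kept, clustering gave a horizontal cluster of 60 cells (median 35916 UMIs) and a retinal ganglion cluster of 861 cells (median 774 UMIs). Which of these cells carried the levels was not tested.

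Of 22 cholesterol synthesis genes, 5 of them members, 18 had their highest mean in amacrine cells among the 6 large classes, against 26.4% of 9853 genes with a mean of at least 10 CPM. This floor was not set for the 22 genes, and Mvd, Tm7sf2 and Hsd17b7, all highest in amacrine cells, lay under it. Of the 17 that are no members, 13 had their highest mean there, and for 6 of these every amacrine library lay above every library of the other 5 classes. Fdps, which makes farnesyl diphosphate, averaged 162 CPM in amacrine cells and 55.4 CPM in cones. The exceptions were Mvk (mevalonate kinase, highest in rod bipolar cells with 49.0 CPM), Lbr and Ebp (highest in cones) and Dhcr7 (highest in Müller glia with 20.95 CPM).

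**Figure D2:**
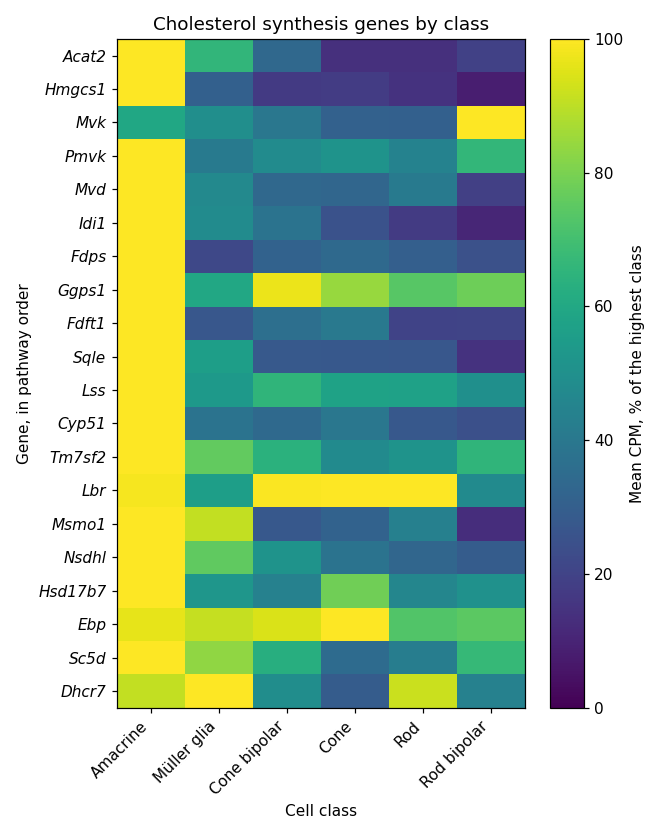
Mean level of 20 cholesterol synthesis genes in the 6 large classes, each row as a percentage of its highest class. Genes run down the page in pathway order, and 16 rows reach their maximum in the amacrine column.

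The genes that control SREBP processing did not share this order. Of 13 such genes, 3 were highest in amacrine cells (Srebf2, Insig1 and Insig2) and 4 in Müller glia. Scap, which encodes the escort of SREBP2, averaged 92.3 CPM in cones, against 25.8 CPM in amacrine cells. Srebf1, which encodes the SREBP that mainly drives fatty acid synthesis, averaged 72.3 CPM in Müller glia, against 9.47 CPM in amacrine cells.

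Across the 32 sums of class and library the members' levels, as log2(CPM + 1), correlated with each other with a Pearson r of 0.41 (Cyp51 with Srebf2) to 0.88 (Hmgcs1 with Idi1). Idi1 and Srebf2 had an r of 0.87. The sums of 1 class share their cell type, and sums of 1 library share its depth, so these values describe the order of classes. They include the microglial sums, which held from 0 (Sqle) to 9 (Hmgcs1) UMIs of a member over all libraries. A sum without UMIs is 0 on this scale, and the part of such sums in the correlations was not tested. Among 10332 genes, those closest to Hmgcs1 were Idi1, Frmd5 and Rbfox2 (r = 0.85 to 0.88), and those closest to Srebf2 were Mir100hg, Gprc5b and Mgll (r = 0.88 to 0.91). Idi1 was closest to Hmgcs1, Srebf2 and Lsamp. Insig1 was closest to Grk3, Dach1 and B3glct (r = 0.87 to 0.89). Zfp267, Zfp518b and Nudt1 were closest to Sqle, Sgta, Trim23 and Appl1 to Fdft1, and Ccdc32, Brms1l and Zdhhc21 to Cyp51.

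Between genotypes, no member passed the adjusted threshold of 0.05 in Müller glia or in any other class, with edgeR's quasi-likelihood test on 2 NLGF and 2 WT libraries. In Müller glia the lowest unadjusted p-values were those of Idi1 and Fdft1, both lower in NLGF libraries, and 2 of 7 members had an unadjusted p under 0.05 where 10.5% of all genes did. The share of genes called after adjustment was 1.02% (114 of 11149). Idi1 and Fdft1 were lower in both NLGF libraries than in either WT library, as was Insig1. Non-overlap of this kind, with NLGF lower, was seen for 16.5% of all genes tested in Müller glia, and non-overlap in either direction for 41%. DESeq2 also called 0 members in each of these classes.

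Idi1 had 69.1 and 72.7 CPM in Müller glia of the NLGF female and male, against 106 and 88.0 CPM in those of the WT female and male. Both NLGF libraries lay below both WT libraries, and the WT female was highest. The log2 fold change was −0.48 ± 0.13 (SE, n = 2 per genotype) with an unadjusted p of 0.00248 and an adjusted p of 0.129 from edgeR. Without the WT male library the value was −0.61 with an adjusted p of 0.0190, and over the 12 alternatives, 2 of them under the threshold, the adjusted p ranged from 0.0190 to 1.00.

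Fdft1 had 22.5 and 25.7 CPM in Müller glia of the NLGF female and male, against 32.0 and 36.0 CPM in those of the WT female and male. The groups did not overlap, with a log2 fold change of −0.55 ± 0.20 (unadjusted p = 0.0160, adjusted p = 0.318, edgeR). Insig1 had 47.0 and 56.3 CPM in the NLGF female and male, against 67.8 and 58.4 CPM in the WT female and male. The gap between the NLGF male and the WT male was small, and its log2 fold change was −0.32 ± 0.16 (adjusted p = 0.508, edgeR).

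The other 4 members overlapped between genotypes in Müller glia. Hmgcs1 had 89.2 and 91.2 CPM in the NLGF female and male, against 118 and 86.6 CPM in the WT female and male. Only the WT female stood apart, and leaving it out gave a log2 fold change of 0.01, against −0.20 ± 0.14 with all libraries. Srebf2 had 128 and 120 CPM in the NLGF female and male and 123 and 127 CPM in the WT female and male. Its log2 fold change was −0.06 ± 0.10 with a 95% interval of −0.28 to 0.16. Sqle had a log2 fold change of 0.02 ± 0.19 and Cyp51 of 0.12 ± 0.16, both with intervals that spanned 0.

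The WT female library had the fewest Müller cells (259, against 422 and 388 in the NLGF female and male and 382 in the WT male), and its Müller sum held 1312292 UMIs, against at least 2056460 in the others. Its summed level of the 5 astrocyte markers, all 5 detected, was 683 CPM, against 41.2 and 45.6 CPM in the NLGF female and male and 71.0 CPM in the WT male. In that library single cells held up to 18 of the 139 Idi1 UMIs, 21 of the 155 Hmgcs1 UMIs and 13 of the 78 Cyp51 UMIs. With the 33 Müller cells that had UMIs of at least 2 astrocyte markers left out, the log2 fold change was −0.40 for Idi1, −0.43 for Fdft1, −0.26 for Insig1 and −0.10 for Hmgcs1. Of 12 marker lists of other cell types, 7 did not overlap between genotypes in Müller glia. Those of horizontal cells, amacrine cells, rod bipolar cells and microglia were higher in NLGF libraries, and those of cone bipolar cells, retinal ganglion cells and astrocytes lower. Horizontal markers, all 6 detected, summed to 1247 and 1214 CPM in the NLGF female and male, against 988 and 951 CPM in the WT female and male. Amacrine markers, all 9 detected, summed to 1022 and 1015 CPM in the NLGF female and male, against 943 and 926 CPM in the WT female and male. Cone bipolar markers, all 10 detected, summed to 203 and 198 CPM in the NLGF female and male, against 232 and 243 CPM in the WT female and male. The part of these lists in the results was not tested, other than by leaving out cells with astrocyte markers. Summed rod markers, all 10 detected, overlapped between the genotypes (2721 to 3301 CPM). In the deeply sequenced Müller cluster alone, Idi1 had 69.5 and 71.1 CPM in the NLGF female and male, against 102 and 91.6 CPM in the WT female and male. In the shallow cluster the NLGF female and male had 65.3 and 85.8 CPM of Idi1. The WT female and male had 137 and 56.8 CPM there, so the genotypes overlapped. Insig1 also overlapped in the shallow cluster (NLGF female and male 13.1 and 34.3 CPM, WT female and male 7.61 and 18.9 CPM). Fdft1 did not (NLGF female and male 17.4 and 17.2 CPM, WT female and male 22.8 and 33.1 CPM).

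**Figure D3:**
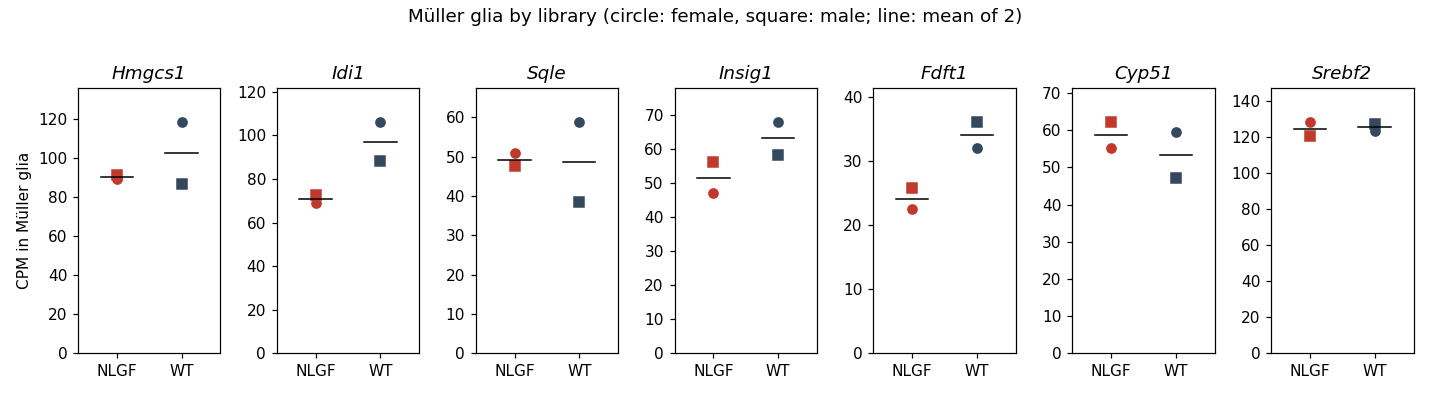
Level of the 7 genes (CPM, axes from 0) in Müller glia of each library, NLGF left and WT right, with the mean of the 2 libraries as a line. Idi1, Insig1 and Fdft1 lie lower in both NLGF libraries than in either WT library, and Srebf2 lies between 120 and 128 CPM in all 4.

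The wider lists moved little between genotypes in Müller glia. Of the 22 synthesis genes, all tested, 0 passed the adjusted threshold in either direction, 2 had an unadjusted p under 0.05 (Idi1 and Fdft1), and the median log2 fold change was −0.01, against 0.00 for all genes. The 13 genes of SREBP control had a median of −0.08, with 0 called and 0 under an unadjusted p of 0.05. Of 19 genes of sterol uptake, transport and storage, 17 were tested and 0 called, with a median of −0.05. Soat1, which esterifies cholesterol for storage, had 42.2 and 62.1 CPM in the NLGF female and male, against 37.3 and 31.1 CPM in the WT female and male (log2 0.58 ± 0.20, adjusted p = 0.266, edgeR).

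Of 10 genes of sterol efflux and oxysterol response, 7 were tested and 0 called, with a median of 0.21 and 6 positive values. Abca1, which encodes a cholesterol efflux transporter and is a known target of liver X receptors, had 53.2 and 47.0 CPM in the NLGF female and male, against 33.5 and 31.6 CPM in the WT female and male. Both NLGF libraries lay above both WT libraries, with a log2 fold change of 0.59 ± 0.17 (unadjusted p = 0.00382, adjusted p = 0.161, edgeR). Of 13 genes of fatty acid synthesis, 11 were tested and 0 called, with a median of 0.07. Fasn, the fatty acid synthase gene, had a log2 fold change of −0.38 ± 0.17 (adjusted p = 0.447). Me1, which encodes malic enzyme, had −0.78 ± 0.33 (adjusted p = 0.402). Its value was −0.16 without the cells carrying astrocyte markers, −0.17 without the WT female library, and −1.33 with an adjusted p of 0.00224 without the WT male library.

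In the other classes the members varied around 0. Of 7 members tested in amacrine cells, cone bipolar cells, cones and rods, 0 were called, where 0.00893%, 0.0453%, 0% and 0.00807% of all genes were called, and 0 had an unadjusted p under 0.05, where 4.61%, 6.28%, 5.79% and 8.53% of all genes did. In amacrine cells the log2 fold change ranged from −0.16 ± 0.11 (Cyp51) to 0.25 ± 0.17 (Sqle). In rods, which had the largest sums, it ranged from −0.19 ± 0.24 (Insig1) to 0.20 ± 0.13 (Sqle). The number of members whose genotypes did not overlap was 2 in amacrine cells, 2 in cone bipolar cells, 1 in cones and 3 in rods, where 33%, 35.8%, 35.6% and 42.8% of all genes did not overlap. None of the 7 members passed the filter on low counts in microglia.

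Idi1 had the opposite direction in rod bipolar cells. It had 20.3 and 28.2 CPM in the NLGF female and male, against 13.3 and 12.6 CPM in the WT female and male, from 19 to 44 UMIs per library. Both NLGF libraries lay above both WT libraries, with a log2 fold change of 0.91 ± 0.28 (unadjusted p = 0.00550, adjusted p = 0.603, edgeR). In this class 6 members were tested and 0 called, where 0% of all genes were called, 1 member and 6.27% of all genes had an unadjusted p under 0.05, and 4 members and 35.8% of all genes did not overlap. Insig1 did not pass the filter on low counts there. Retinal ganglion markers, 7 of 8 detected, summed to 14.3 and 12.8 CPM in the NLGF female and male, against 6.31 and 4.01 CPM in the WT female and male. Cone bipolar markers, all 10 detected, summed to 807 and 860 CPM in the NLGF female and male, against 921 and 995 CPM in the WT female and male. In all, 4 of 12 lists of other cell types did not overlap, and the others with lower NLGF values were those of cones and astrocytes. The part of these lists in the result was not tested.

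Among the members and classes tested, the largest fold change between genotypes was that of Hmgcs1 in vascular cells, from few cells. It had 152 and 130.1 CPM in the NLGF female and male, against 51.0 and 57.4 CPM in the WT female and male. These values rest on 15 and 36 UMIs in 12 and 25 cells of the NLGF female and male, and on 14 and 17 UMIs in 28 and 23 cells of the WT female and male. The groups did not overlap, with a log2 fold change of 1.32 ± 0.34 (unadjusted p = 0.00122, adjusted p = 0.543, edgeR). The summed pericyte markers of this class, all 10 detected, were at 4179 and 9882 CPM in the NLGF female and male, against 13678 and 7912 CPM in the WT female and male. The endothelial markers, all 10 detected, were at 16877 and 16349 CPM in the NLGF female and male, against 14250 and 14876 CPM in the WT female and male. Müller markers, 9 of 10 detected, were at 730.2 and 827 CPM in the NLGF female and male, against 568 and 516 CPM in the WT female and male. Of 11 lists of other cell types, Müller markers were thus higher in both NLGF libraries, and 4 (cone, horizontal, astrocyte and microglia) were lower. The part of these lists in the result was not tested. In vascular cells 3 members were tested and 0 called, where 0.0961% of all genes were called. Hmgcs1 was the 1 member with an unadjusted p under 0.05, where 5.09% of all genes were, and the 1 without overlap, where 35.4% were.

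**Figure D4:**
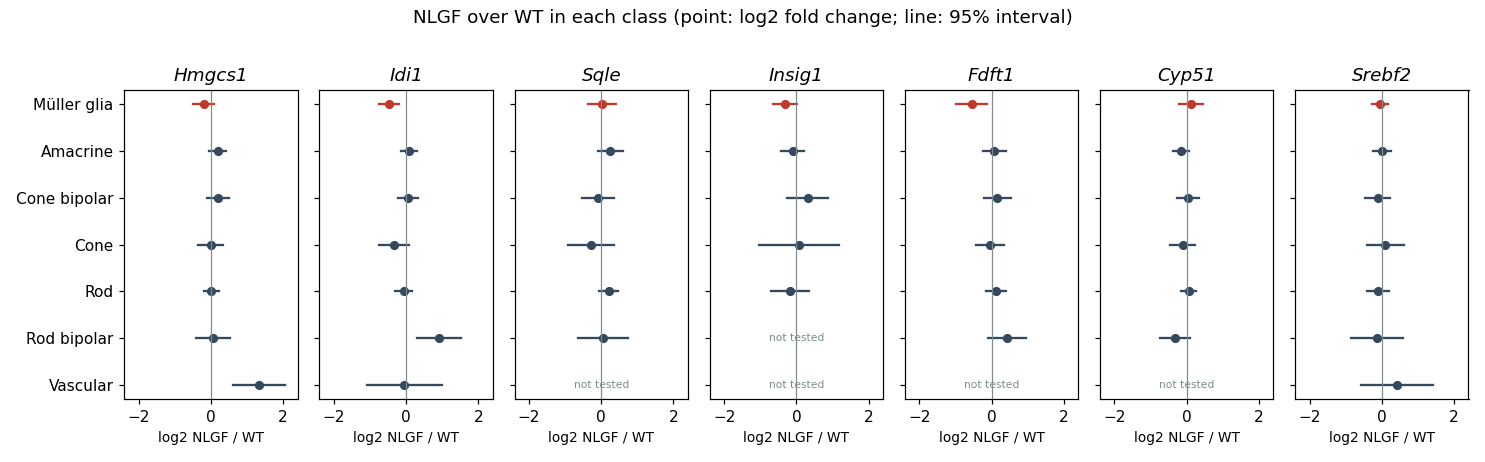
Log2 fold change of NLGF over WT for each gene in 7 classes, with the 95% interval from edgeR as a line. Intervals lie left of 0 for Idi1 and Fdft1 in Müller glia and right of 0 for Idi1 in rod bipolar cells and Hmgcs1 in vascular cells, and the others span 0; the intervals are not adjusted for the number of genes.

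The difference of the genotype effect between Müller glia and other classes was tested as an interaction with library as a block. Against rods 0 of 7 members passed, where 0.302% of 13591 genes did, with 1049 of those genes (7.72%) at an unadjusted p under 0.05. The effect in Müller glia minus that in rods was −0.67 ± 0.25 for Fdft1 (unadjusted p = 0.00884, adjusted p = 0.412) and −0.41 ± 0.17 for Idi1 (unadjusted p = 0.0206, adjusted p = 0.532), and these 2 were the members under 0.05 without adjustment. DESeq2 also called 0 members. Against rod bipolar cells, a comparison added after the values had been seen, 1 member passed, where 0.299% of 11725 genes did, and 2 members were under an unadjusted p of 0.05, where 6.26% of genes were. It was Idi1, with −1.38 ± 0.33 (adjusted p = 0.0136, edgeR, adjusted over genes and not over the classes compared). The call was lost with DESeq2, without the WT female (adjusted p = 0.255), without the WT male (adjusted p = 0.126) and without the NLGF male (adjusted p = 0.754), with values from −1.53 to −1.15 over all 8 alternatives. Against amacrine cells, cone bipolar cells, cones and vascular cells, added in the same way, 0 members passed, where 0.438%, 0.48%, 0.0939% and 0.234% of all genes did with edgeR. Under an unadjusted p of 0.05 were 3, 3, 0 and 1 members in these 4 comparisons, against 6.72%, 6.89%, 5.49% and 5.5% of all genes. Among these the lowest adjusted p was that of Hmgcs1 against vascular cells (−1.52 ± 0.41, adjusted p = 0.0674).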

How the data were processed

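The deposited files hold UMI counts that were not normalised, 1 matrix for each of the 4 libraries. Per the file headers they were written by Cell Ranger 6.1.1, while version 3.1.0 of that tool, STAR and mm10 appear in the submitters' processing notes. The handling of intronic reads was not given in the sources used here. Every deposited barcode held at least 500 UMIs.

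A barcode was kept with 300 or more detected genes and no more than 20% of UMIs from mitochondrial genes, which left 33329. Scrublet's automatic threshold marked 2 doublets, so the 6% of each library with the highest scores were removed (1797 cells). Clustering used scanpy 1.11.5 (2000 variable genes without the 77 lipid genes of the lists, 30 components, 20 neighbours, Leiden resolution 1.0 with leidenalg 0.10.2). A cluster took the class with the highest mean marker level, relative to the highest cluster, with at least 3 markers detected in 5% of cells. It stayed unnamed where a second class reached 0.8 of that score (endothelial and pericyte markers were joined as vascular) or led its top 10 genes. These naming rules were set after the data were seen. With the lipid genes allowed among the variable genes, 99.5% of cells kept their class.

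Counts were summed per class and library and tested with edgeR 4.0.16 in R 4.3.3 (TMM, filterByExpr, quasi-likelihood, two-sided, Benjamini-Hochberg adjustment over all genes tested). SE is that of the log2 fold change. CPM values use raw class totals. Alternatives were DESeq2 1.42.0, no filter on low counts, cells with at least 1000 UMIs, thinned sums, doublets kept, lipid genes kept among the variable genes, no astrocyte-marker cells, sex as a block, and each library left out. Amacrine contrasts, interactions other than with rods, and levels without microglia were added after the data were seen. The tests were checked on simulated data. Members and lists were chosen with earlier results of these data known. Named genes were the 7 members, list genes with an unadjusted p under 0.05 in Müller glia (up to 4 per list), and the 3 genes most like each member. Other list genes in the account of levels were named after their values were seen. Intervals and limits at 0 counts (3 UMIs) cover counting error or the spread between libraries only. The values of some genes of the synthesis list are not reported here, although its counts include them.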

Additional observations from a re-analysis of the deposited data

Results flagged for a closer look

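Idi1 passed the threshold in a test of whether the genotype effect differed between Müller glia and rod bipolar cells. Its adjusted p covers the genes of this 1 comparison, and not the choice of class after the values had been seen. The log2 effect in Müller glia minus that in rod bipolar cells was −1.38 ± 0.33 (adjusted p = 0.0136, edgeR). Idi1 was lower in both NLGF libraries than in either WT library of Müller glia and higher in both in rod bipolar cells, where it rested on 19 to 44 UMIs per library. The comparison was added after the values had been seen, and over the 8 alternatives 4 kept the adjusted p under 0.05, with a range of 0.00971 to 1.00.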

How the results depend on the processing

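The number of members changed between genotypes was 0 in the 7 classes with members tested under the alternatives run, of which thinned sums left no vascular member to test. The exception was Müller glia, where it was 1 (Idi1) with sex as a replicate block (log2 −0.48, adjusted p = 0.0200) and ranged from 0 to 1 with 1 library left out. Among all lipid genes in Müller glia it was 0, against 1 with doublets kept (Me1, −1.16), 1 with the sex block (Idi1), and 0 to 2 with 1 library left out. Each genotype had 1 female and 1 male, and same-sex libraries are different animals, so the block adjusts for sex and does not pair animals. Deviations of same-sex libraries from the genotype means correlated with r = 0.25 in Müller glia, 0.51 in rods and 0.11 in amacrine cells, over 6403 to 7520 genes.

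The 1 member with a different effect in rod bipolar cells (Idi1) became 0 with DESeq2, and 0 to 1 with 1 library left out. In Müller glia Sqle turned to −0.00622 with DESeq2. With 1 library left out the log2 fold change ranged from −0.42 to 0.0105 for Hmgcs1, from −0.29 to 0.31 for Sqle and from −0.0535 to 0.26 for Cyp51. The Müller level of Fdft1 turned to −0.0841 with cells of at least 1000 UMIs and to −0.0826 without microglia, and ranged from −0.17 to 0.24 with 1 library left out. The causes were not tested. Vascular and microglial values rest on few cells, 12 to 29 per library.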
